A study of Aedes aegypti with 12 samples.

Results

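The genes described here are LOC5575506, annotated as monocarboxylate transporter 8, and LOC5565499, annotated as sodium/potassium/calcium exchanger 4, in the yellow fever mosquito *Aedes aegypti*. They are 2 of the 19256 genes in the deposited tables. They were chosen by their measured transcript level, which was lower in the brain and higher on average in the fat body of mosquitoes with a mutation in AaegGr34 than in wild type. The mutant and wild-type values of both tissues therefore chose the genes, and they are given below as a description without a test.

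RNA-seq was made from brain and from fat body, an insect tissue with tasks that mammals divide between liver and adipose tissue. The wild-type mosquitoes were of the Liverpool strain, and the mutants carried a lesion in AaegGr34, a gustatory receptor gene. Each of the 4 groups had 3 libraries, 12 in all, with 18.5 M to 31.3 M counts per library. Both genotypes were reared with 10% sucrose under 12 h of light and 12 h of dark at 25 to 28 °C. The position of the lesion, the genetic background of the mutants, age, sex, feeding state at dissection and the number of animals per library are not stated in the labels. The libraries are called biological replicates, but nothing states that they came from separate animals or pools, so p-values measure only the spread between these libraries. In whole-tissue RNA, fewer cells of a type and less RNA per cell cannot be told apart.

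The targeted gene, Gr34 (LOC5570009), was barely read: its brain libraries held 24, 22 and 7 counts (wild type) or 6, 11 and 28 (mutant), and its fat body libraries 2, 4 and 16 or 2, 11 and 2, respectively. Such counts cannot verify a genotype. Both tissue labels were matched by their markers: synaptotagmin-1, a synaptic vesicle protein, was at 300 to 463 TPM (a level scaled by transcript length and library depth) in the brain libraries and 0.744 to 2.92 TPM in fat body, whereas apolipophorins, a lipid carrier made by the fat body, was at 264 to 497 TPM in fat body and 84.1 to 161 TPM in brain. Photoreceptor genes were abundant in the brain libraries, where a list of 47 of them took 22.7 to 27.2% of the counts in wild type and 20.5 to 22.4% in the mutant.

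Monocarboxylate transporters move small organic acids such as lactate and pyruvate across the cell membrane, many of them together with a proton, and so link cells that make these fuels with cells that burn them. In mammals, monocarboxylate transporter 8 carries thyroid hormones instead, and the name of the mosquito gene rests on sequence similarity and says nothing about its substrate. Sodium/potassium/calcium exchangers expel calcium from the cell, using the inward sodium gradient and the outward potassium gradient. In Drosophila, exchangers of this kind are known from photoreceptors and other neurons, where calcium has to be cleared after stimulation.

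LOC5575506 lies on the plus strand of chromosome 2 of AaegL5.0 (395877819 to 396041775), spans 164.0 kb and has 13 exons. LOC5565499 lies on the plus strand of chromosome 3 (274601915 to 274615141), spans 13.2 kb and has 7 exons. No other annotated gene overlaps the span of either. The deposited counts and TPM values together correspond to an exonic length of 4879 bases for LOC5575506 and 1826 bases for LOC5565499. A count that was not whole, as splitting a read between genes would give, was present in 4 of the 12 libraries for LOC5575506 and in 2 of 12 for LOC5565499. Both genes passed the filter on low counts in brain and in fat body.

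In brain, LOC5575506 was at 45.9, 48.8 and 37.3 CPM (the count scaled to library depth by the trimmed mean of M-values, TMM, within the tissue) in wild type and at 26.7, 19.5 and 29.0 CPM in the mutant. The lowest wild-type library was above the highest mutant library, so the genotypes did not overlap. The means were 44.0 ± 6.0 and 25.1 ± 4.95 CPM (SD, n = 3 each), a log2 fold change, mutant over wild type, of -0.81 with a standard error (SE) of 0.173. Over all 11848 genes tested in brain, 14.1% were lower in the mutant without overlap between genotypes, and 4.26% were called lower. A gene is called when its adjusted p from edgeR's quasi-likelihood test, with Benjamini-Hochberg adjustment over all genes tested, is under 0.05.

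LOC5565499 differed further in brain. It was at 115, 97.7 and 115 CPM in wild type and at 28.6, 30.6 and 26.5 CPM in the mutant, on means of 109 ± 9.97 and 28.6 ± 2.05 CPM (SD, n = 3 each). The 3 mutant libraries were close to each other and all far below the 3 wild-type libraries. Its log2 fold change was -1.93 (SE 0.106), and it ranged from -2.01 to -1.88 when each brain library was left out in turn, against -0.93 to -0.67 for LOC5575506. The authors' deposited table gives -0.82 for LOC5575506 and -1.94 for LOC5565499 in brain.

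In fat body both genes stood on the other side. LOC5575506 was at 2.04, 3.68 and 3.19 CPM in wild type and at 12.8, 17.0 and 12.0 CPM in the mutant (means 2.97 ± 0.84 and 13.9 ± 2.7, SD, n = 3 each), with no overlap. Behind these values stood 36, 85 and 84 wild-type counts and 198, 526 and 218 mutant counts. The log2 fold change was 2.23 (SE 0.329) and stayed between 2.04 and 2.40 without any one fat body library. On log2(TPM + 1) it was 1.38, since a pseudocount shrinks the change of a gene at a low level.

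LOC5565499 in fat body was at 13.0, 28.3 and 23.7 CPM in wild type and at 40.2, 29.8 and 59.9 CPM in the mutant (means 21.7 ± 7.84 and 43.3 ± 15.3, SD, n = 3 each). The genotypes came close to meeting, since the highest wild-type library (replicate 2) and the lowest mutant library (replicate 2) differed by less than the SD of either group. The log2 fold change was 1.00 (SE 0.382), it fell to 0.72 without mutant replicate 3 and to 0.76 without wild-type replicate 1, and it rose to 1.23 without wild-type replicate 2. The authors' deposited table gives 1.00 for this gene and 2.23 for LOC5575506 in fat body. Over all 11558 genes tested in fat body, 6.07% were higher in the mutant without overlap and 0.138% were called higher.

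**Figure D1:**
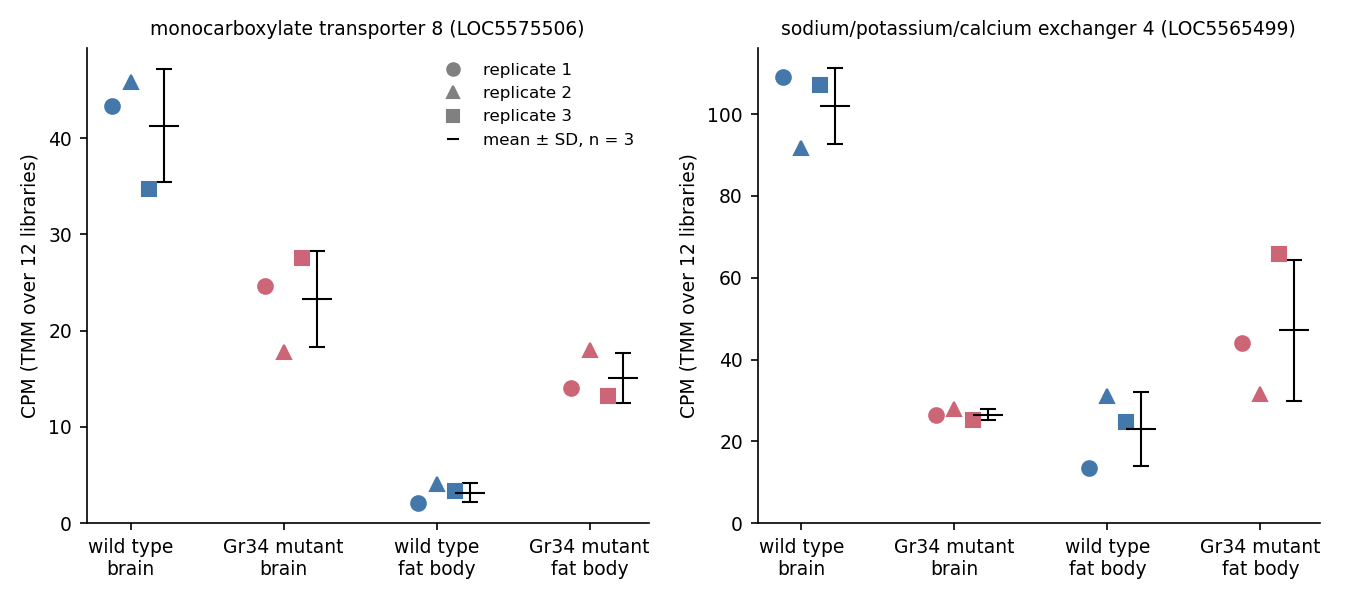
CPM of LOC5575506 (left) and LOC5565499 (right) in each of the 12 libraries, on 1 TMM scale over all libraries; symbols are replicates, and the bars are the mean ± SD of 3 libraries. Mutant brain is below wild-type brain for both genes, and for LOC5565499 the mutant and wild-type fat body libraries nearly meet at 31.5 and 31.2 CPM.

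How the fat body libraries were scaled decided whether the genotypes overlapped for LOC5565499. They did not overlap with TMM or with DESeq2 size factors, but they did on CPM of total counts, where wild type was at 9.46, 32.3 and 30.1 and the mutant at 29.9, 38.6 and 58.8. They overlapped on TPM as well, where wild type was at 6.97, 26.6 and 25.9 and the mutant at 21.0, 34.5 and 46.6. On the 4 scales the log2 ratio of the group means was between 0.78 and 1.01. For LOC5575506 the fat body genotypes did not overlap on any of the 4 scales, and in brain neither gene overlapped on any of them.

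**Figure D2:**
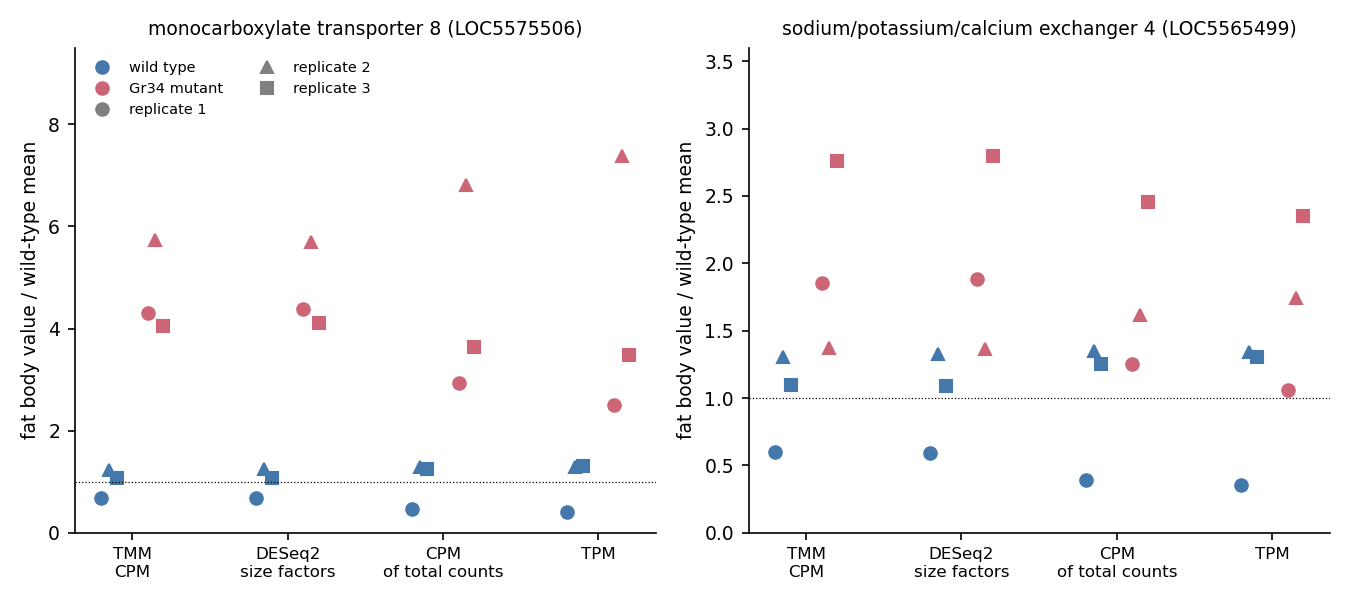
Fat body values of LOC5575506 (left) and LOC5565499 (right) under 4 scalings, each divided by the wild-type mean of that scaling (dotted line at 1). For LOC5575506 every mutant library is above every wild-type library under each scaling, whereas for LOC5565499 mutant replicate 1 falls among the wild-type libraries on CPM of total counts and on TPM.

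The fat body libraries differed in composition, and wild-type replicate 1 was the lowest library for both genes. Ribosomal protein genes (91) took 32.3, 25.3 and 23.6% of the counts of the wild-type and 35.6, 21.2 and 27.3% of the mutant libraries. A list of 17 ovary and germline genes took 0.0524, 0.192 and 0.256% in wild type and 0.0773, 0.311 and 0.118% in the mutant. On TPM the libraries of LOC5575506 had the same order as this share within each genotype. They were at 0.408, 1.29 and 1.3 in wild type and at 2.5, 7.38 and 3.49 in the mutant. The wild-type order rested partly on 1.29 against 1.3. With TMM scaling LOC5575506 had the order in neither genotype (2.04, 3.68 and 3.19 CPM in wild type, 12.8, 17.0 and 12.0 in the mutant). The libraries of LOC5565499 had it in neither genotype on either scale. Between genotypes the shares overlapped. Gut genes (110) took 0.0356 to 0.108% of the wild-type counts and 0.0377, 0.548 and 1.03% of the mutant counts, and the libraries' composition was not tested as a part of either difference.

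In brain the photoreceptor share given above did not overlap between genotypes and was lower in the mutant. The share of a list of 18 fat body genes was higher there, at 0.0979 to 0.117% against 0.0658 to 0.092% in wild type, and that of 28 neuron and glia genes was 0.215 to 0.253% against 0.25 to 0.284%, which overlapped. Their part in the brain differences of LOC5575506 and LOC5565499 was not tested.

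Set on 1 scale over all 12 libraries, LOC5575506 was highest in wild-type brain (41.3 ± 5.85 CPM, SD, n = 3), then in mutant brain (23.3 ± 5.0), mutant fat body (15.1 ± 2.59) and wild-type fat body (3.16 ± 0.987). Mutant brain and mutant fat body overlapped, the lowest brain library being at 17.8 and the highest fat body library at 18.0 CPM, while the other neighbours in this order did not. LOC5565499 was also highest in wild-type brain (102 ± 9.31 CPM), but there mutant fat body came next (47.1 ± 17.3), followed by mutant brain (26.5 ± 1.39) and wild-type fat body (23.1 ± 9.01). The 3 mutant brain libraries, at 26.4, 28.0 and 25.3 CPM, all lay within the range of wild-type fat body, at 13.4, 31.2 and 24.7 CPM.

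The difference between tissues, averaged over genotypes, played no part in the choice of the genes and could be tested. LOC5575506 was lower in fat body than in brain by a log2 difference of -2.17 (SE 0.187, adjusted p = 9.71e-07 with edgeR's quasi-likelihood test over 12 libraries). LOC5565499 was lower by -0.66 (SE 0.218, adjusted p = 0.0166 in the same fit). Such a difference was common, since 75.7% of 12859 genes were called between tissues and 36.4% were called lower in fat body. Of all calls between tissues 51.8% were higher in fat body, against 34.2% on log2(TPM + 0.1), where the median of all genes moved from 0.09 to -0.47 and LOC5565499 stood at -1.27. Both calls held under every alternative tried, including the omission of any 1 library, with values of -2.63 to -2.08 for LOC5575506 and -1.27 to -0.55 for LOC5565499.

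The averages cover unlike genotypes. In wild type LOC5575506 was lower in fat body by a log2 difference of -3.70 (SE 0.282), and in the mutant by -0.63 (SE 0.252). LOC5565499 was lower in wild-type fat body by -2.15 (SE 0.32), whereas in the mutant the sign turned to 0.83 (SE 0.31). These values restate the contrasts that chose the genes, and no test is attached to them.

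A pair of opposite signs was itself frequent. Of 10642 genes tested in both tissues, 2133 (20%) had a negative log2 fold change in brain and a positive one in fat body. At least as far as the smaller of the pair in each tissue went 26 genes (0.244%), the pair described here included. The values that chose the pair set this cut, so the share does not measure how unusual the pair is. With TMM scaling, 11 of the 26, both transporters among them, did not overlap between genotypes in either tissue. Among all genes tested in a tissue, 14.1% were lower in mutant brain and 6.07% higher in mutant fat body without overlap. The share with both was not counted. Of the 505 genes called lower in mutant brain, 373 were tested in fat body, where 94 were higher by sign and 9 were higher at least 2-fold. The matching shares over all genes were not counted, and the 20% above is a joint share. The counts 94 and 9 therefore do not show whether these genes differ from the rest. Over all 12859 genes of the 12-library fit, the genotype effect was called different between tissues for 0.467%.

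**Figure D3:**
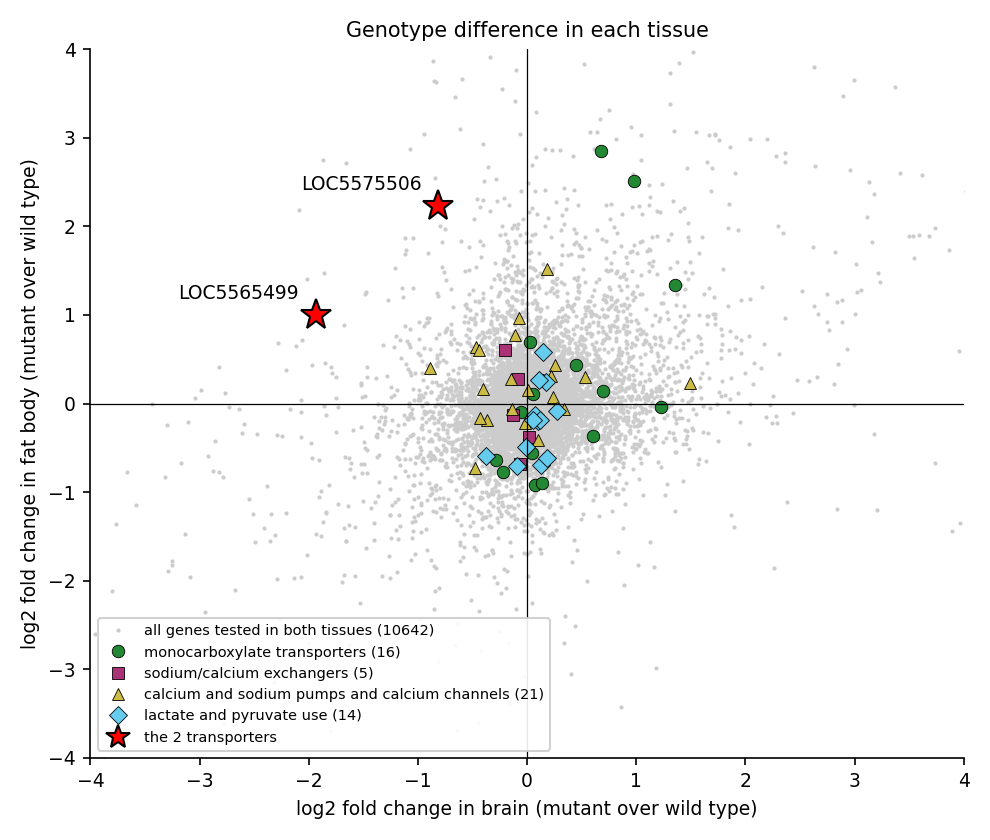
Log2 fold change, mutant over wild type, in brain (horizontal) and fat body (vertical) for 10642 genes tested in both tissues, with 4 gene lists in colour and the 2 transporters as stars; 87 genes lie outside the plotted range. The stars are in the upper left, at -0.81 and 2.23 for LOC5575506 and at -1.93 and 1.00 for LOC5565499. Both genes were chosen for these signs, so their quadrant was fixed beforehand. Some other genes of their lists, which were not chosen so, share the signs, such as the exchanger LOC5565354 at -0.205 and 0.605. The monocarboxylate transporter gene LOC5572450 lies higher in fat body than either star, at 0.68 and 2.85.

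Levels of different genes are compared per length, as TPM. Among 20 genes named as monocarboxylate transporters, some of them the sodium-coupled kind, which belongs to another protein family, LOC5575506 was of middle rank in brain. It ranked 8, 8 and 10 in the wild-type brain libraries and 10 in all 3 mutant ones, and it made up 4.13, 3.74 and 2.76% of the summed TPM of the list in wild type and 1.97, 1.36 and 1.72% in the mutant. In fat body it ranked 13, 11 and 10 in wild type and 8, 8 and 9 in the mutant, with shares of 0.361, 1.16 and 1.14% and of 3.57, 5.8 and 3.06%. It was a minor transcript of the list in every library.

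LOC5565499 was a main exchanger transcript. Among 10 genes named as sodium/calcium or sodium/potassium/calcium exchangers it ranked 2 in all 3 wild-type brain libraries, with 30.9, 27.6 and 29.0% of the list's summed TPM, and 4 in all 3 mutant ones, with 9.56, 12.7 and 9.14%. The summed TPM of the other exchangers in brain was 261, 275 and 262 (wild type) and 294, 211 and 256 (mutant), which overlapped. In fat body it ranked 1 in all 6 libraries, with 40.4, 48.8 and 42.0% of the list in wild type and 66.6, 46.2 and 70.6% in the mutant. In wild-type replicate 3 its lead was slight, at 25.9 TPM against 25.6 for LOC5565483, also named exchanger 4. The level of LOC5565499 in brain was 110 ± 6.38 TPM in wild type and 29.2 ± 2.96 in the mutant (SD, n = 3 each).

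**Figure D4:**
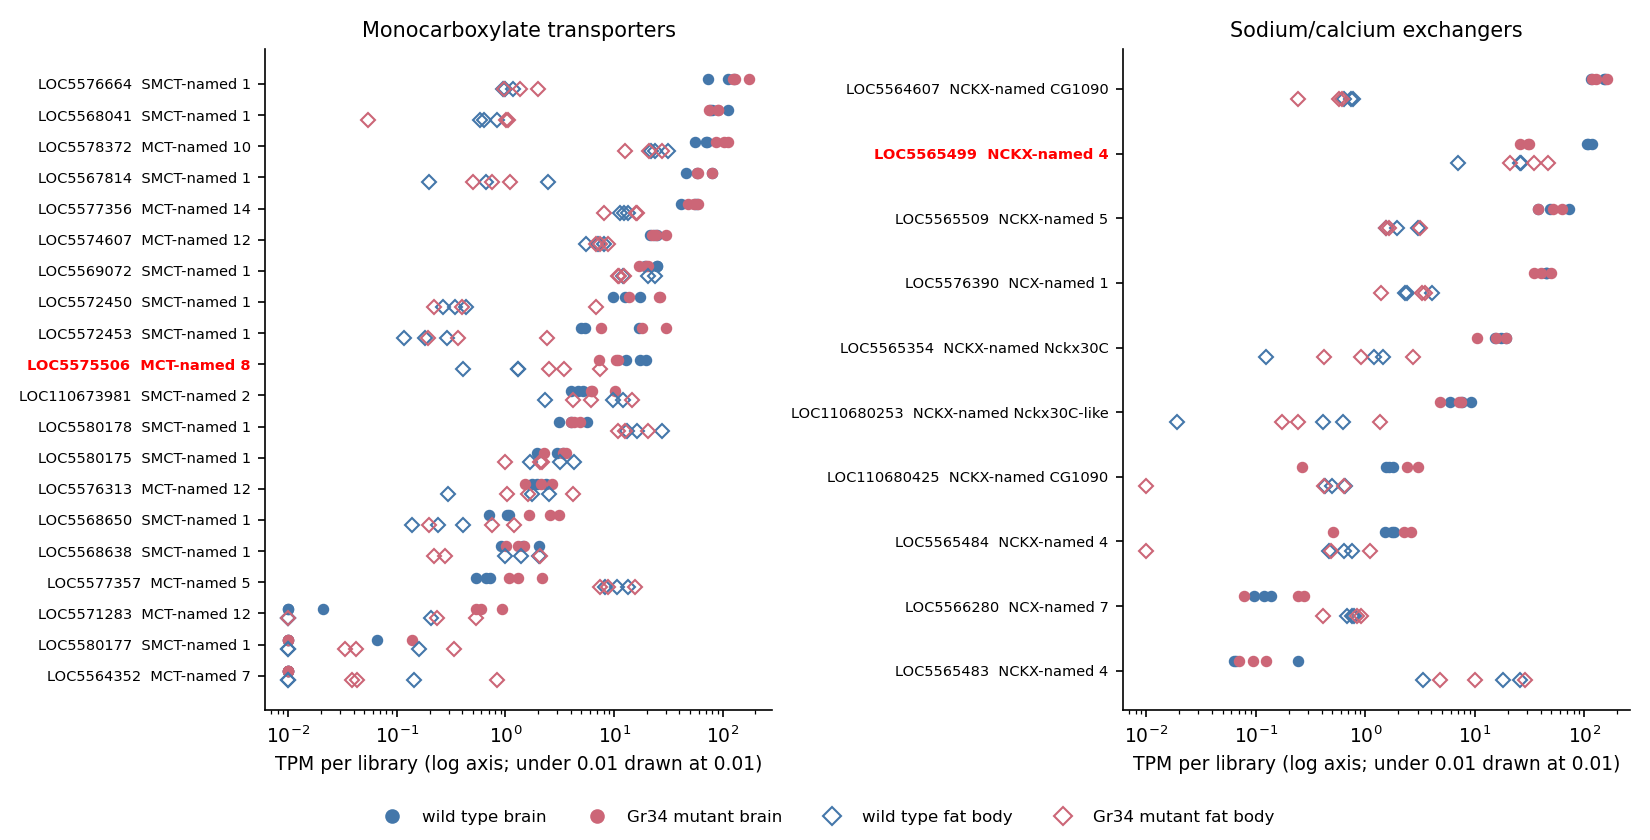
TPM per library, on a log axis, of the 20 genes named as monocarboxylate transporters (left) and the 10 named as exchangers (right), ordered by their level in brain; filled circles are brain, open diamonds fat body, blue wild type and red mutant, with the 2 transporters in red type. LOC5565499 is at 105 to 117 TPM in wild-type brain and 25.8 to 31.0 TPM in mutant brain, while the mutant and wild-type brain libraries of the exchanger above it are mixed.

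Without LOC5565499, none of 7 exchangers tested in brain was called (8.86% of all genes were), with a median log2 fold change of -0.09 and a range from -0.25 to 0.15, beside a median of 0.01 over all genes. None of 7 tested in fat body was called either (0.234% of all genes were), with a median of -0.12 and a range from -0.679 to 0.605. In both tissues 0 had an unadjusted p under 0.05 with edgeR, and DESeq2 and limma-voom called 0. The most abundant exchanger in brain, LOC5564607, named after Drosophila CG1090, was at 140 ± 22.5 TPM in wild type and 136 ± 21.6 in the mutant, with a log2 fold change of -0.07 (SE 0.12).

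Without LOC5575506, 3 of 16 monocarboxylate transporter genes tested in brain were called, all of them higher in the mutant (as were 4.6% of all genes), with a median log2 fold change of 0.13. Monocarboxylate transporter 10 (LOC5578372), which in mammals is close to monocarboxylate transporter 8 and also carries aromatic amino acids, rose from 143, 130 and 119 CPM in wild-type brain to 188, 227 and 181 in the mutant (log2 fold change 0.60, SE 0.118, edgeR adjusted p = 0.0243). A gene named sodium-coupled monocarboxylate transporter 1 (LOC5568650) rose from 1.12 ± 0.171 to 2.87 ± 0.762 CPM (adjusted p = 0.0322 with edgeR). Monocarboxylate transporter 5 (LOC5577357), named here after its value was seen as the remaining one of the 3, rose from 1.57 ± 0.118 to 3.68 ± 1.2 CPM (adjusted p = 0.0407 with edgeR).

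The most abundant gene of the list in brain, a sodium-coupled one (LOC5576664), was at 104 ± 28.0 TPM in wild type and 143 ± 26.6 in the mutant and was not called (log2 fold change 0.45, SE 0.238). The 3 calls were close to the threshold. Each was lost when any of 5 of the 6 brain libraries was left out, with adjusted p from edgeR of 0.0502 to 0.128, and with all 12 libraries in 1 fit. The call of monocarboxylate transporter 5 was also lost with limma-voom (adjusted p = 0.053), with the replicate block (0.0679) and on log2(TPM + 0.1) (0.0965) and log2(TPM + 1) (0.0913). In fat body 0 of 16 were called by edgeR, DESeq2 or limma-voom, and 1 had an unadjusted p under 0.05. The median was 0.03, with a range from -0.921 to 2.85. Monocarboxylate transporter 10, the most abundant of the list in fat body, was at 25.8 ± 5.02 TPM in wild type and 20.4 ± 7.59 in the mutant there (SD, n = 3 each), which overlapped.

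Of 21 tested genes for calcium and sodium pumps and calcium channels, the proteins that set the gradients exchangers use or let calcium in, 2 rose in mutant brain and 0 fell, near the 8.86% called among all genes, with a median of -0.07. The voltage-dependent calcium channel subunit alpha-2/delta-3 (LOC5574272), an auxiliary subunit that in mammals brings channels to the membrane, rose from 81.6 ± 7.29 to 230 ± 18.0 CPM (log2 fold change 1.49, edgeR adjusted p = 0.000571), while LOC5565499 was lower in the same libraries. Calcium release-activated calcium channel protein 1 (LOC5579438), the Orai channel of store-operated calcium entry, rose from 33.5 ± 5.55 to 48.4 ± 1.73 CPM (edgeR adjusted p = 0.0477), a call lost without any of 5 of the 6 brain libraries (adjusted p 0.0876 to 0.189). The sodium/potassium ATPase alpha subunit (LOC5575790), whose sodium gradient drives the exchangers, was at 863 ± 151 TPM in wild-type brain and 875 ± 110 in the mutant. In fat body, where 0.234% of all genes were called, 0 of 21 were called by edgeR, DESeq2 or limma-voom, with 2 at an unadjusted p under 0.05 and a median of 0.24.

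Among 14 genes of lactate and pyruvate use, 1 fell in mutant brain and 0 rose, again near the 8.86% called among all genes (4.26% lower), with a median of 0.10. It was a probable pyruvate dehydrogenase E1 alpha subunit (LOC5566309), part of the complex that feeds pyruvate into the mitochondrial citrate cycle, at 64.9 ± 2.32 CPM in wild type and 50.0 ± 4.06 in the mutant (edgeR adjusted p = 0.0477). That call was lost without any of 5 of the 6 brain libraries (0.0936 to 0.175). Pyruvate kinase (LOC5565629), the last enzyme of glycolysis, was at 334 ± 19.0 and 336 ± 9.44 TPM in the brain groups. In fat body (0.234% of all genes called) 0 of 14 were called by edgeR, DESeq2 or limma-voom, 1 had an unadjusted p under 0.05, and the median was -0.18.

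LOC5565499 lies in a run of exchanger genes on the plus strand of chromosome 3. The exchanger genes next to it on either side differed from each other in tissue pattern. LOC5565509 (exchanger 5, 274510794 to 274579539) ends 22.4 kb before it, and LOC5565483 (also named exchanger 4, 274631848 to 274678885) begins 16.7 kb after it. The gene before was mainly a brain transcript, at 52.5 ± 17.5 TPM (wild type) and 50.6 ± 12.4 TPM (mutant) in brain (log2 fold change -0.09, SE 0.315) and at 2.18 ± 0.785 and 2.11 ± 0.905 TPM in fat body. Its log2 difference between fat body and brain was -3.99 (SE 0.376, edgeR adjusted p = 2e-06), of the same sign as that of LOC5565499. A further gene of the run, LOC5565484 (also named exchanger 4), begins 130.4 kb after LOC5565499 and is named here after its value was seen. Its log2 difference between tissues had that sign too but was not called (-1.085, SE 0.607, edgeR adjusted p = 0.125).

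LOC5565483, the gene after, was read mainly in the fat body libraries. Brain libraries held 3, 8 and 2 counts of it (wild type) or 2, 3 and 4 (mutant), too few to enter the brain test, whereas fat body libraries held 166, 657 and 924 (wild type) or 211, 1150 and 347 (mutant). Fat body exceeded brain by a log2 difference of 7.36 (SE 0.505, edgeR adjusted p = 1.51e-07), and the genotypes overlapped in fat body (log2 fold change -0.06, SE 0.547). Its 6 fat body libraries, at 3.37, 17.9 and 25.6 TPM in wild type and 4.77, 28.8 and 9.94 in the mutant, had the same order as the ovary and germline share given above, which LOC5565499 did not; the part of that share in its level was not tested. Averaged over genotypes, the adjacent genes LOC5565499 and LOC5565483, which share a given name, thus had differences between tissues of opposite sign, whereas in the mutant alone both were higher in fat body, by 0.83 and 7.50.

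The further neighbours of LOC5565499 were a zinc finger protein gene (LOC5565510), with log2 fold changes of -0.05 in brain and 0.01 in fat body, and a long noncoding RNA, LOC110679352, 94.4 kb after it on the minus strand. Its brain counts were 8.5, 1.5 and 0 (wild type) and 31, 12 and 28 (mutant), where it was higher (edgeR adjusted p = 0.0482), a call lost without any 1 of the 6 brain libraries (0.0507 to 0.186). Within 1 Mb of LOC5565499 it was the only called gene of 21 tested in brain, where 8.86% of all genes were called. Of 18 tested there in fat body, 0 were called by edgeR, beside 0.234% of all genes.

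The nearest gene before LOC5575506 is an uncharacterized long noncoding RNA, LOC110676961 (chromosome 2, 395703297 to 395710004, plus strand), which ends 167.8 kb before it. Wild type had next to none of it, with brain counts of 0.83, 0 and 0 and fat body counts of 0, 0.67 and 1.33. Mutant brain counts were 698.81, 240.1 and 394.96, and mutant fat body counts 21.5, 59.73 and 62.48, so it was higher in every mutant library of both tissues. The edgeR adjusted p was 0.00109 in brain and 0.039 in fat body, and the fat body call was lost without any 1 of the 6 fat body libraries (0.0603 to 0.251). Its counts are not whole in most libraries, so they may include reads shared with other copies.

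Around LOC5575506 that noncoding RNA was the only called gene within 1 Mb in either tissue, of 23 genes tested in brain and 24 in fat body, beside 8.86% and 0.234% called among all genes. The medians of these neighbours were 0.06 and -0.22. The nearest protein-coding gene, uncharacterized LOC5575504, begins 62.7 kb after LOC5575506 and had log2 fold changes of 0.09 in brain and -0.91 in fat body (adjusted p = 0.632 with edgeR). The other named neighbours were tetratricopeptide repeat protein 8 (LOC5566053) with 0.57 in brain and a long noncoding RNA (LOC5575507) with 0.11 in brain and 0.35 in fat body. Neither was called where it was tested.

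**Figure D5:**
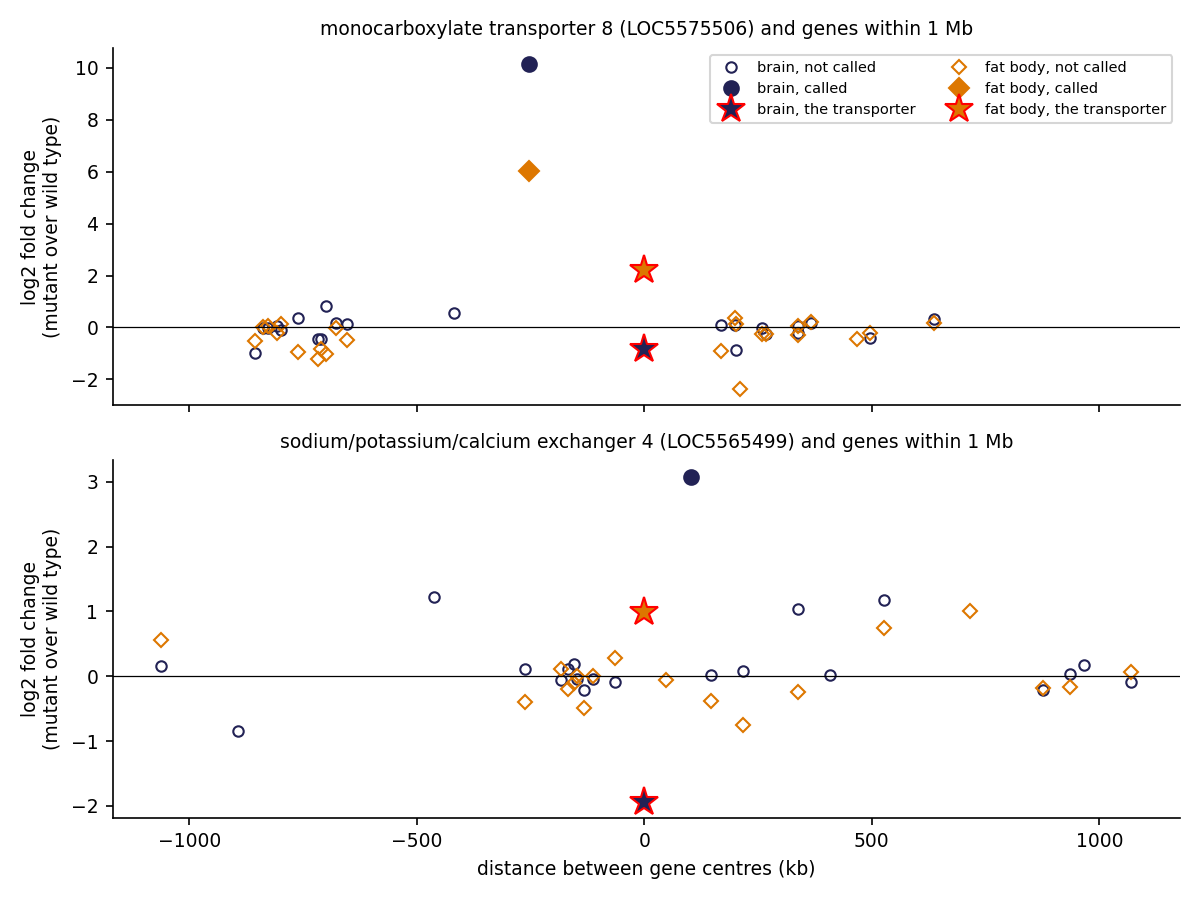
Log2 fold change, mutant over wild type, of the genes within 1 Mb of LOC5575506 (top) and LOC5565499 (bottom) against the distance between gene centres in kb; circles are brain, diamonds fat body, filled symbols called genes and stars the transporters. LOC110676961, to the left of LOC5575506, is filled in both tissues, and its plotted height depends on the prior count, since its wild-type counts are next to 0.

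The genes whose pattern was most like that of each transporter were found by Pearson correlation of log2 CPM over the 12 libraries after the mean of each tissue was removed, among 9538 genes. The coefficients are descriptions, since all genes share the same libraries, depth and scaling. The genotype difference within each tissue was left in, and that contrast chose the transporters. Genes that share it therefore rank high, and the coefficient between the transporters includes it too. For LOC5575506 the nearest was zwei Ig domain protein zig-8 (LOC5567664, r = 0.956), followed by zinc finger protein 239 (LOC5574247, 0.942), protein sax-3 (LOC5565802, 0.937), proline-rich protein 2 (LOC5569621, 0.934) and F-box/LRR-repeat protein 16 (LOC5575480, 0.931). Zig-8, a cell surface immunoglobulin protein known from nematode neurons, was at 8.79 ± 0.888 CPM (wild type) and 4.18 ± 1.4 CPM (mutant) in brain, and at 0.24 ± 0.11 and 1.81 ± 1.24 CPM in fat body. Its fat body counts were low, at 2, 7 and 8 in wild type and 16, 100 and 21 in the mutant.

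For LOC5565499 the nearest were rhoGEF domain-containing protein gxcI (LOC5564690, r = 0.891), retinol dehydrogenase 12 (LOC5565044, 0.860), isoaspartyl peptidase/L-asparaginase (LOC5580113, 0.859), zinc finger protein 239-like (LOC110679532, 0.846) and the rab3 GTPase-activating protein regulatory subunit (LOC5572238, 0.844). Isoaspartyl peptidase/L-asparaginase was at 8.77 ± 0.734 CPM (wild type) and 2.16 ± 0.452 CPM (mutant) in brain, and at 0.809 ± 0.311 and 2.16 ± 1.17 CPM in fat body. Its fat body counts were 8, 22 and 27 in wild type and 15, 102 and 40 in the mutant, and the genotypes overlapped there. The genes named above were picked as the highest by this coefficient, so every other gene had to lie below them. Between the transporters r was 0.686. Among 9538 genes this placed LOC5565499 at rank 320 for LOC5575506 and LOC5575506 at rank 140 for LOC5565499. In fat body the wild-type libraries of both had the same order on CPM, replicate 1 being the lowest and replicate 2 the highest. Mutant replicate 2 was the highest of the mutant libraries for LOC5575506 and, with TMM scaling, the lowest for LOC5565499; on CPM of total counts and on TPM it was in the middle.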

How the data were processed

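RNA-seq of 12 libraries was analysed from the deposited tables. Per the labels, polyA RNA was made into libraries, and the submitters' processing notes name STAR, Subread, featureCounts, FastQC and DESeq2 without versions. Not given in the sources used here are the genome build, the strand setting and the treatment of multi-mapped reads. The RefSeq gene table of AaegL5.0 held 18399 of the 19256 genes, and start and end were identical for 18363 of 18393 that could be compared. The authors deposited estimated counts, of which 25.39% of values were not whole, and TPM values. The authors' deposited DESeq2 tables have columns, per the file headers, for the mean signal of normalized counts, the log2 fold change and its standard error, a test score and p-values; only log2 fold changes were used.

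Counts were rounded to whole numbers and fitted with edgeR 4.0.16 in R 4.3.3 (TMM, filterByExpr with a count of 10 and a total of 15, quasi-likelihood F-test, two-sided, Benjamini-Hochberg adjustment, threshold 0.05), each tissue on its 6 libraries and the difference between tissues on all 12. CPM are TMM-scaled within a tissue unless stated. The SE printed for edgeR was back-calculated as the absolute log2 fold change over the square root of its F statistic. Exonic lengths came from counts and TPM, calibrated on the mitochondrial 12S rRNA. Gene lists were text patterns on gene descriptions, without the 2 transporters; calls, medians and ranges were counted with no set test. The transporters and lists were chosen with earlier results of these data known. Genes were named by rule: per list and tissue, up to 2 called genes of smallest adjusted p in each direction and the most abundant gene; 5 most like genes per transporter with a description; and the 2 nearest genes on each side; not all of them are printed.

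Alternatives were DESeq2 1.42.0, limma-voom (limma 3.58.1), DESeq2 size factors, scaling by library size alone, every gene with a count, 1 CPM in 3 libraries, 1 fit of 12 libraries, a replicate block, the newer quasi-likelihood method, log2(TPM + 0.1) or log2(TPM + 1) in limma, and leaving out each library in turn. The main edgeR fits of brain, of fat body and of the difference between tissues were first run on simulated data carrying known changes. The alternatives were not run on simulated data.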

Additional observations from a re-analysis of the deposited data

Results flagged for a closer look

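Both transporters are listed here because, in the libraries with TMM scaling, all mutant samples lay below all wild-type samples in brain and above them in fat body. For LOC5575506 the log2 fold change in fat body minus that in brain was 3.07, and for LOC5565499 it was 2.97. The difference was not tested, since it chose the genes. For LOC5565499 the fat body genotypes overlapped on CPM of total counts and on TPM.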

How the results depend on the processing

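The lower level of both transporters in fat body than in brain, averaged over genotypes, kept its sign and its call under the 10 alternatives tried for it and without any 1 library: without 1 library it ran from -2.27 to -2.08 for LOC5575506 and from -0.82 to -0.55 for LOC5565499. For LOC5565499 it moved from -0.66 to -1.27 on log2(TPM + 0.1) and -1.23 on log2(TPM + 1). The genotype differences kept their signs, also without any 1 library, and that of LOC5575506 in fat body moved to 1.38 on log2(TPM + 1). The background moved more. In brain 1050 genes were called, 1629 with DESeq2, 343 with all 12 libraries in 1 fit (39.9% higher, against 51.9%) and 405 to 979 without 1 library. In fat body 27 were called, 337 with DESeq2, 362 with 12 libraries in 1 fit, 1 with library size only, 50 on log2(TPM + 0.1) (48.0% higher, against 59.3%), 60 with the newer quasi-likelihood method, 55 with no filter and 0 to 37 without 1 library. Without 1 library, 9436 to 10085 genes were called between tissues. Of the lists, the monocarboxylate transporters had 3 calls in brain, 2 with limma-voom, the replicate block and both TPM settings, 4 with no filter, 0 with 12 libraries in 1 fit and 0 to 3 without 1 library. The calcium and sodium list had 2, but 1 with the 1 CPM filter, DESeq2 size factors, 12 libraries in 1 fit and both TPM settings, and 1 to 2 without 1 library. The lactate and pyruvate list had 1, but 0 with 12 libraries in 1 fit, library size only, both TPM settings or no filter, and 0 to 1 without 1 library. The cause of these shifts was not tested. Whether the replicate numbers pair the libraries is not settled. Deviations of same-numbered wild-type and mutant libraries correlated by 0.015, 0.099 and 0.204 in brain and 0.176, 0.321 and -0.223 in fat body. Other-numbered libraries ran from -0.220 to 0.188 in brain and from -0.510 to 0.412 in fat body. Not every library correlated best with its own number. Brain libraries were not compared with fat body libraries of the same number. With the replicate block the difference between tissues was -2.18 for LOC5575506 and -0.69 for LOC5565499, with 9615 genes called between tissues, 767 in brain and 54 in fat body, and 0 of the lactate and pyruvate list. Depth limits LOC5575506 most in wild-type fat body, where it had 36 to 85 counts.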

Other observations

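The 26 genes that were lower in mutant brain and higher in mutant fat body at least as far as the smaller of the transporters are described here after their values were seen, with no test. Besides the transporters, those with no overlap between genotypes in either tissue included methyl farnesoate epoxidase (LOC5573424), an enzyme of the last steps of juvenile hormone synthesis, with log2 fold changes of -1.66 in brain and 2.72 in fat body. Rootletin (LOC5572577), a protein of the ciliary rootlet, had -1.12 and 1.69, and the rootletin-like LOC110680869 had -1.12 and 1.86. Protein stum (LOC5577412), known in Drosophila from mechanosensory neurons, had -1.11 and 1.73, protein SCAI (LOC5574473) had -0.85 and 3.64, and sine oculis-binding protein homolog (LOC5575516) had -1.15 and 1.30. Krueppel-like factor luna (LOC5572908), at -1.86 and 1.48, overlapped between genotypes in fat body.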
